A study of Mus musculus with 18 samples.

Results

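The genes of glucose entry, glycolysis and lactate transport examined here were the glucose transporter gene Slc2a1, the hexokinase genes Hk1 and Hk2, the downstream enzyme genes Aldoa, Pgk1, Eno1, Pkm and Ldha, and the monocarboxylate transporter genes Slc16a1 and Slc16a3. They are 10 genes of the 58126 in the deposited table, chosen by gene name as a pathway list, with earlier results of these data known. The names matched 11 rows, because a second row also carries the name Aldoa; it reached at most 0.09 TPM and was not used. Transcripts were measured by RNA sequencing in 18 mouse liver libraries of 5 groups and given in TPM, a measure of each gene's share of the RNA of its library that is already divided by transcript length. The 3 DEN LKO tumour libraries came from liver tumours, and the 3 DEN LKO nontumour libraries from liver outside tumours, of mice with a liver-specific knockout of Ftcd (LKO) given 20 mg/kg of the liver carcinogen diethylnitrosamine (DEN) into the abdomen on postnatal day 14. The 6 DEN WT libraries came from nontumour liver of WT mice given the same dose. These mice were killed 12 months after the injection. The 3 untreated LKO and 3 untreated WT libraries came from mice 12 months old. The series names the strain as C57BL/6. The labels do not say which promoter drove the deletion, nor that libraries came from separate mice, so p-values measure the spread between these libraries only. There was no WT tumour group.

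Glycolysis turns glucose into pyruvate, and lactate dehydrogenase interconverts pyruvate and lactate. Adult hepatocytes mostly use their own forms of the entry and exit steps, such as the transporter Slc2a2 and liver pyruvate kinase (Pklr), and they take up lactate to make glucose. Slc2a1, Hk2, Aldoa and Pkm are forms of proliferating cells and other tissues and are known to be raised in many liver tumours. Slc16a1 encodes MCT1, which carries lactate, pyruvate and ketone bodies with protons, and Slc16a3 encodes MCT4, a lactate exporter of strongly glycolytic cells.

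Several features of the libraries bear on all values below. Ftcd itself was 0.10 to 3.16 TPM in the 9 libraries labelled LKO and 61.2 to 106.1 TPM in 6 of the 9 labelled WT. The libraries labelled DEN WT replicates 1 and 2 and untreated WT replicate 3 had 1.77 to 2.50 TPM, against their labels. Fits without these 3 libraries, which leave 15, are given beside the main results that rest on them. By Xist and Y-linked genes all 9 libraries labelled WT and replicate 1 of both DEN LKO groups were XX, and the other 7 were XY, so in untreated liver sex and genotype cannot be told apart. Mitochondrially encoded genes made up a share of the summed TPM that ran from 4.24% to 38.8%. Hepatocyte markers summed to 19617 to 104275 TPM over the 18 libraries. Skeletal muscle markers summed to 170.8 and 44.0 TPM in DEN WT replicates 2 and 3 and to at most 6.03 TPM elsewhere. In such bulk samples, fewer cells of a type and less RNA per cell cannot be told apart.

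Within the pathway the levels spanned several orders of magnitude. Over all 18 libraries, Ldha (median 141 TPM), Eno1 (median 136 TPM), Aldoa (median 78.8 TPM) and Pgk1 (median 39.6 TPM) were the abundant enzymes. Slc16a1 had a median of 29.9 TPM. Pkm (median 6.72 TPM), Slc2a1 (2.59 TPM), Hk2 (0.855 TPM), Hk1 (0.515 TPM) and Slc16a3 (0.21 TPM) were low. A gene was tested when it reached 1 TPM in at least 3 libraries. That left 13872 genes and 9 of these 10, since Slc16a3 reached 1 TPM in a single library. Hk1 reached it in 5 libraries. Hk2 also reached it in 5, all of them DEN LKO, so it was tested only through the groups in which it was high. The reads of Pkm do not part its M1 and M2 forms here, because the table is at gene level.

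**Figure D1:**
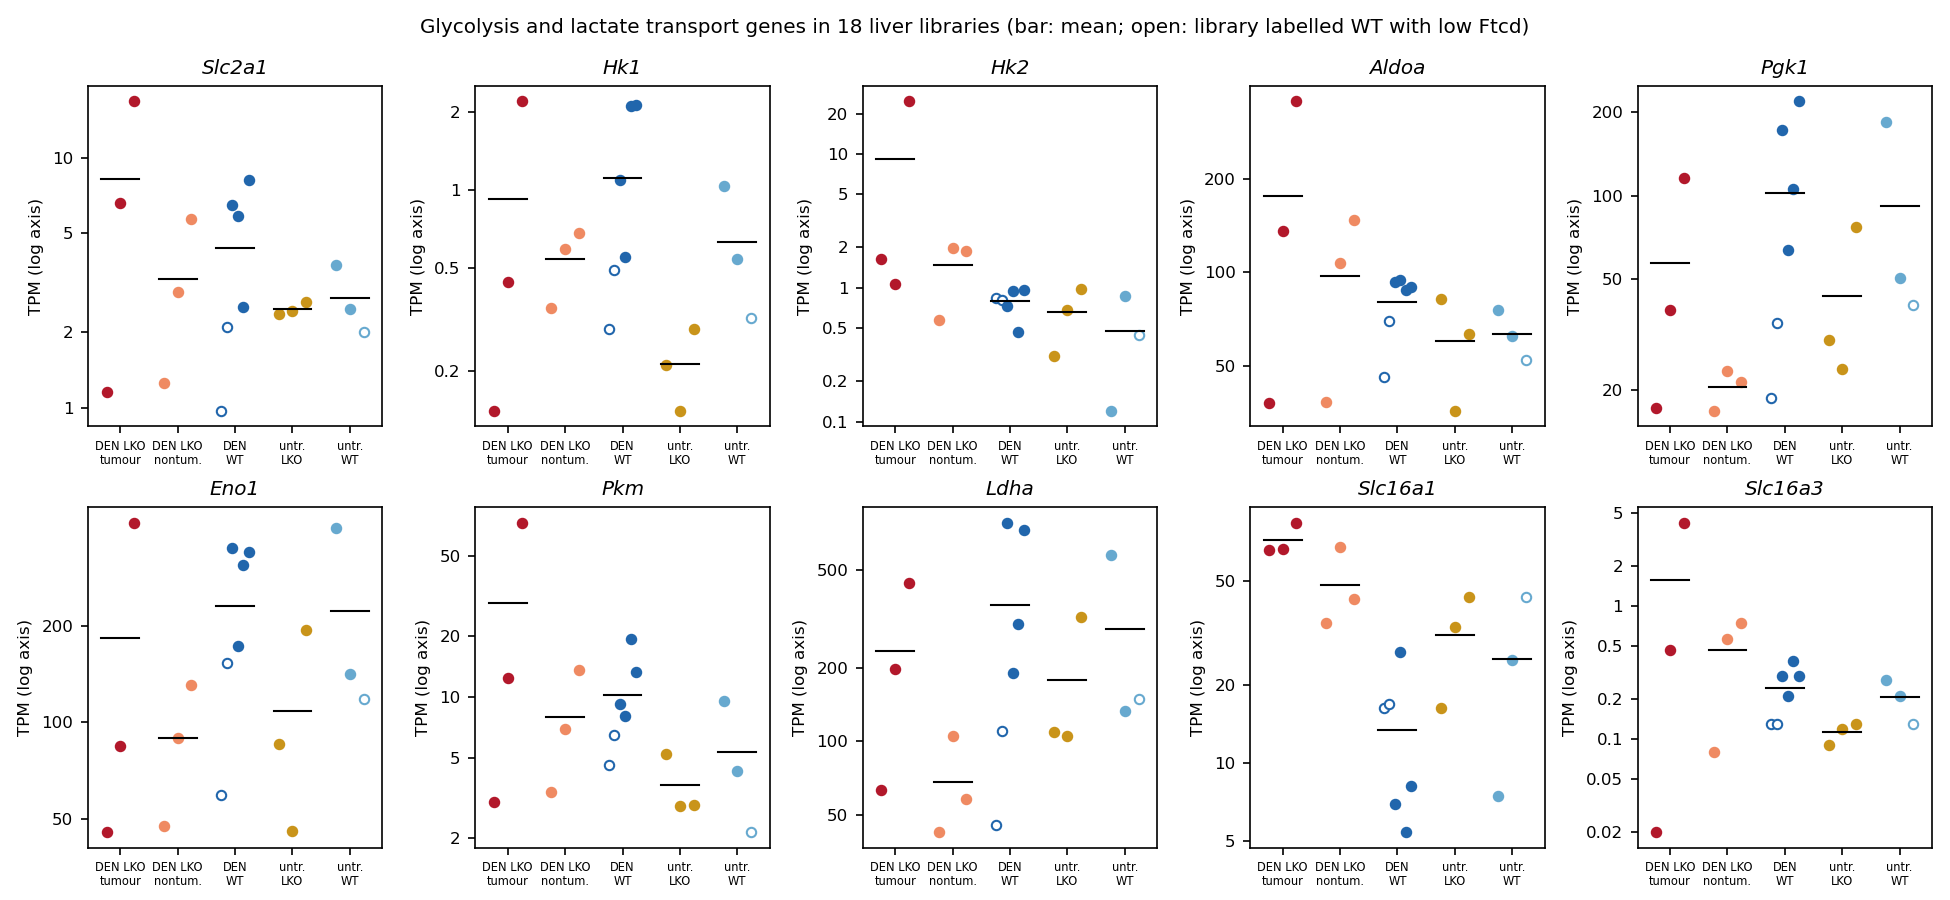
Each panel plots the TPM of one gene on a log axis, with one point per library, the groups from left to right and the mean of each group as a bar; open points are the 3 libraries labelled WT with Ftcd at 1.77 to 2.50 TPM. All 3 tumour libraries lie above all 6 DEN WT libraries for Slc16a1 and Hk2, and DEN LKO tumour replicate 3 is the highest of 18 libraries for 8 of the 10 genes.

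The lactate transporter gene Slc16a1 was the one gene of the 9 to pass in a comparison of groups when all 18 libraries were fitted. It lies on the plus strand at chr3:104638668-104658462 (mm10). It measured 65.6, 66.1 and 83.6 TPM in the DEN LKO tumours, against a lowest value of 5.41, a median of 12.2 and a highest value of 26.6 TPM in the 6 DEN WT livers. Every tumour library stood above every DEN WT library. On the log2(TPM + 1) scale the difference was 2.52 ± 0.53 (SE; limma adjusted p = 0.0414 over all genes tested), higher in 3 of 3 tumours. In this comparison 0.497% of all genes tested passed, against 1 of the 9 here. Hepatocyte markers were lower for 11 of 12, none passing, with a median of -1.53 beside 0.04 over all genes. Without the 3 low-Ftcd libraries labelled WT, 11 of 12 were lower and 6 passed, with a median of -2.04 beside -0.16. The part of hepatocyte content was not tested.

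Slc16a1 was also high in the nontumour liver of the same genotype after DEN. The DEN LKO nontumour libraries had 34.5, 67.4 and 42.5 TPM, all above the 26.6 TPM of the highest DEN WT library. Here the difference was 1.91 ± 0.53 and did not pass (limma adjusted p = 0.24). Without the 3 low-Ftcd libraries labelled WT it was 2.15 with a limma adjusted p of 0.0333, in a fit in which 8.35% of all genes passed. In that fit every DEN LKO nontumour library also had a higher mitochondrial share than every DEN WT library. Between tumour and nontumour LKO liver the 2 groups overlapped, and the difference was 0.61 ± 0.61 (limma adjusted p = 0.943).

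In mice without DEN the genotypes overlapped for Slc16a1. The untreated LKO libraries had 16.3, 33.2 and 43.2 TPM, against 7.49, 24.8 and 43.3 TPM in the untreated WT libraries. The highest of these WT values belongs to replicate 3, one of the low-Ftcd libraries. The fold change was 0.48 ± 0.61 (limma adjusted p = 0.83), and 1.004 ± 0.64 without that library and the other low-Ftcd libraries (limma adjusted p = 0.589). The genotype effect after DEN minus that in untreated liver was 1.43 ± 0.81, and 1.15 ± 0.84 without the low-Ftcd libraries (limma adjusted p = 1 for both), so a larger effect after DEN was not detected.

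By group mean, Slc16a1 ran from 71.8 ± 10.2 TPM in tumours (SD, n = 3) through 48.1 ± 17.2 in DEN LKO nontumour liver, 30.9 ± 13.6 in untreated LKO and 25.2 ± 17.9 in untreated WT liver to 13.4 ± 8.07 in DEN WT liver (SD, n = 3, 3, 3 and 6). No neighbouring pair in this order passed the test, the last pair included (DEN WT against untreated WT, -0.76 ± 0.53, limma adjusted p = 1).

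The call for Slc16a1 in tumours was close to the threshold. It was kept without the low-Ftcd libraries (2.76, limma adjusted p = 0.0145, 3.03% of all genes passing) and lost without any one of tumour replicates 2 and 3 or DEN WT replicates 2, 3, 5 and 6, with limma adjusted p of 0.0534 to 0.14 and fold changes of 2.33 to 2.62. A sex term left 2.26 (limma adjusted p = 0.535), and the mitochondrial share as a covariate left 2.11 (limma adjusted p = 0.0518). Only the DEN LKO groups held both XX and XY libraries, so the sex term rests on replicate 1 against replicates 2 and 3 of each. Replicate 1 of the tumours and of DEN LKO nontumour liver also had mitochondrial shares of 31.4% and 36.9%, the highest of their groups. Without the low-Ftcd libraries the share was 10.5% to 31.4% in tumours and 4.39% to 9.82% in DEN WT liver, so it cannot be told apart from group there. Among XX libraries alone, tumour replicate 1 had 65.6 TPM and nontumour replicate 1 had 34.5 TPM, against 5.41 to 26.6 TPM in the 6 DEN WT libraries, and no WT library was XY.

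Relative to its family, Slc16a1 made up most of the monocarboxylate transporter transcripts in knockout liver. The family sum here is Slc16a1, Slc16a3 and Slc16a7, the last encoding the high-affinity carrier MCT2. The Slc16a1 share was 82.3%, 84.4% and 69.5% in the tumours and 72.0%, 85.4% and 67.4% in DEN LKO nontumour liver, against 15.3% to 68.8% (median 36.7%) in DEN WT liver. It was 71.9%, 87.2% and 74.4% in untreated LKO liver, against 20.4%, 47.4% and 70.8% in untreated WT liver. The 3 highest shares among libraries labelled WT, 68.8%, 58.8% and 70.8%, belonged to the 3 libraries with low Ftcd, and the other 6 had 15.3% to 54.0%. Slc16a7 had 14.1, 11.8 and 32.4 TPM in the tumours. It had 6.28, 4.77 and 14.8 TPM in untreated LKO liver, against 29.0, 27.3 and 17.8 TPM in untreated WT liver, groups that did not overlap without passing the test (-1.53 ± 0.58, limma adjusted p = 0.83; -1.74 ± 0.53, limma adjusted p = 0.333, without the low-Ftcd libraries). Basigin (Bsg), the chaperone that brings MCT1 and MCT4 to the membrane, had 143, 257 and 722 TPM in the tumours and passed in no comparison.

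The exporter gene Slc16a3 (chr11:120948480-120960868, plus strand, mm10) was near the floor of the table. It had 0.02, 0.47 and 4.22 TPM in the tumours and 0.08, 0.57 and 0.75 TPM in DEN LKO nontumour liver, against 0.13 to 0.39 TPM (median 0.255) in DEN WT liver. It had 0.09, 0.12 and 0.13 TPM in untreated LKO and 0.28, 0.21 and 0.13 TPM in untreated WT liver. Tumour replicate 3 alone exceeded 1 TPM, and tumour replicate 1 was the lowest of all libraries. Slc16a3 was 3.51% of the family sum in tumour replicate 3 and at most 1.28% in every other library. With no filter on low values the tumour against DEN WT fold change was 0.68 ± 0.35 (limma adjusted p = 0.524).

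The bases before the start of both transporter genes are shown because these are the genes of lactate transport itself, one abundant and one near the floor. Each sequence is the 250 bases before the RefSeq start (GRCm38.p6), read in the direction of the gene. The gene spans given here are from GENCODE, whose starts can differ, and the Slc16a3 window lies inside its span. Capitals mark ACGTG and GCGTG on either strand, the 2 forms of the core motif of hypoxia-inducible factors (HIF). The first overlaps the E-box CACGTG, a motif of Myc and related factors.
Slc16a1, plus strand, chr3:104638414-104638663: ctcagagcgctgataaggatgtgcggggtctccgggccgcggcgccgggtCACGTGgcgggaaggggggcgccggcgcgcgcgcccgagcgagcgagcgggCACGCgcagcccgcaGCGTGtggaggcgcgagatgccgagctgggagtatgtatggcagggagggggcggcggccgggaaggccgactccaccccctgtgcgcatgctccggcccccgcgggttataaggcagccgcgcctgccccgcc
Slc16a3, plus strand, chr11:120948817-120949066: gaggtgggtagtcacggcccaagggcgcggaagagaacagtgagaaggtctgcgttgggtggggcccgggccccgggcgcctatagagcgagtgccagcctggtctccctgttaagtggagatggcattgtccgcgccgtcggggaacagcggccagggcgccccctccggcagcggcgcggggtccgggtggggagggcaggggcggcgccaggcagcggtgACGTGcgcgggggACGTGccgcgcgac
Slc16a1 has 3 stretches in capitals, the farthest beginning 200 bases before the start and containing the E-box. Slc16a3 has 2, beginning 27 and 14 bases before the start. Of all 32851 promoters of the table, 16.6% hold ACGTG, 28.2% hold GCGTG, 38.6% hold either and 6.02% hold CACGTG in the same window. The 10 genes have 17 promoters listed, of which 14 hold either form of the HIF core and 2 hold CACGTG. These 17 windows are not all separate. Aldoa windows 2 and 3 overlap and hold the same ACGTG match, and Eno1 windows 2 and 3 overlap and hold the same GCGTG matches. The G and C content of the windows ran from 49.6% to 76.4%, and no share was computed for promoters of like content. Enrichment was therefore not tested. A match is a description of the letters only.

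For Hk2, the tumour group held one library far above the rest. Hk2, the hexokinase of proliferating cells (chr6:82725025-82774454, minus strand, mm10), had 1.64, 1.07 and 24.6 TPM in the tumours, against 0.47 to 0.96 TPM (median 0.825) in DEN WT liver. The groups did not overlap, but the tumour mean rests on replicate 3, whose 24.6 TPM was 12.4 times the next highest library. The fold change was 1.54 ± 0.54 (limma adjusted p = 0.25), and 0.39 (limma adjusted p = 0.609) without that replicate. It was 1.56 (limma adjusted p = 0.195) without the low-Ftcd libraries. Between tumour and nontumour LKO liver it was 1.12 ± 0.63 (limma adjusted p = 0.943), and -0.03 without tumour replicate 3.

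Pkm, whose product makes pyruvate, showed the same spread within the tumours. It had 3.02, 12.4 and 72.7 TPM in the tumours and 3.40, 6.96 and 13.7 TPM in DEN LKO nontumour liver, against 4.60 to 19.4 TPM (median 8.68) in DEN WT liver. Tumour replicate 3 had 24.1 times the level of tumour replicate 1, and the groups overlapped. The tumour against nontumour LKO difference was 0.98 ± 0.78 (limma adjusted p = 0.943), and -0.13 without tumour replicate 3.

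Aldoa, the aldolase of muscle and growing tissues, had 38.1, 136 and 354 TPM in the tumours and 38.2, 107 and 148 TPM in DEN LKO nontumour liver, against 46.2 to 94.3 TPM (median 88.8) in DEN WT liver. Slc2a1, which encodes the glucose transporter GLUT1, had 1.16, 6.60 and 16.8 TPM in the tumours and 1.25, 2.90 and 5.68 TPM in DEN LKO nontumour liver, against 0.97 to 8.16 TPM (median 4.18) in DEN WT liver. Hk1, a hexokinase of most tissues, had 0.14, 0.44 and 2.19 TPM in the tumours and 0.35, 0.59 and 0.68 TPM in DEN LKO nontumour liver, against 0.29 to 2.12 TPM (median 0.82) in DEN WT liver. For each of these genes the tumours held both a library at or near the bottom of the series and the highest library of the series, and the groups overlapped. The tumour against DEN WT fold changes were 0.65 ± 0.56, 0.51 ± 0.57 and -0.19 ± 0.34 for Aldoa, Slc2a1 and Hk1 in that order, with limma adjusted p of 0.773, 0.832 and 0.91. Without tumour replicate 3 the value for Aldoa was -0.11. Without the low-Ftcd libraries these fold changes were 0.43, 0.06 and -0.45, and that of Pkm was 0.30 in place of 0.63, with limma adjusted p of 0.502 to 0.967.

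Tumour replicate 3 exceeded the other tumours for all 10 genes and was the highest of the 18 libraries for 8 of them, Ldha and Pgk1 being the exceptions. It was also the highest library for 26.4% of all genes tested. In that library the 13 macrophage and Kupffer cell markers summed to 1305 TPM, against 182.7 and 261.6 TPM in tumour replicates 1 and 2 and 66.6 to 799.1 TPM in the other groups. Of the 13, 5 were highest there (Cd68, Lyz2, C1qa, C1qb and C1qc). Adgre1, Csf1r and Mrc1 lay within the DEN WT range in that library. The Kupffer cell genes Marco, Timd4, Clec4f, Vsig4 and Cd5l were below all 6 DEN WT libraries in every tumour library, replicate 3 included. Marco had 0.16, 0.49 and 2.50 TPM in the tumours, against 6.32 to 21.0 TPM in DEN WT liver. Timd4 had 0.86, 0.20 and 0.47 TPM, against 1.19 to 4.64 TPM. Of the 13, 0 passed in tumours against DEN WT liver and 5 did not overlap, beside 3.19% of all genes. In tumour replicate 3 the 8 dividing cell markers summed to 84.2 TPM, against 8.96 and 15.8 TPM in the other tumours and at most 12.1 TPM elsewhere, and all 8 were highest there. T and B cell markers summed to 34.2 TPM and endothelial markers to 60.3 TPM in it, within the 2.39 to 87.4 TPM and 13.9 to 117.3 TPM of all libraries. Their part in the levels of these genes was not tested.

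The promoter window of Hk2 is shown because Hk2 gave the largest gap between one library and the rest, with the same capitals as above.
Hk2, minus strand, chr6:82774455-82774704: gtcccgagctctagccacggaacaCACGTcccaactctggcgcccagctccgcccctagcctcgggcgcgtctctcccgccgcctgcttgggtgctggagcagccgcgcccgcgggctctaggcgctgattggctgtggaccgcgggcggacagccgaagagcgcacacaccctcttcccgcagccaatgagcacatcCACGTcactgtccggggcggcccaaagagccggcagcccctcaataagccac
It holds 2 stretches of the HIF core, both of the form ACGTG, and no CACGTG.

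Ldha, Pgk1 and Eno1 moved from library to library together, in an order that was not that of the tumours. Ldha, the main lactate dehydrogenase subunit of liver (chr7:46841475-46855627, plus strand, mm10), had 42.4, 105 and 57.9 TPM in DEN LKO nontumour liver, against 45.6 to 781 TPM (median 246) in DEN WT liver. Pgk1, the X-linked phosphoglycerate kinase (chrX:106187100-106203699, plus strand), had 16.8, 23.5 and 21.3 TPM in DEN LKO nontumour liver, against 18.6 to 218 TPM (median 84.6) in DEN WT liver. Eno1, enolase 1 (chr4:150236721-150248879, plus strand), had 47.3, 89.4 and 130 TPM in DEN LKO nontumour liver, against 59.2 to 349 TPM (median 241) in DEN WT liver. In all 3 genes the lower end of the DEN WT range was replicate 1, a low-Ftcd library, and replicates 3 and 6 were at or near the top.

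None of the 3 passed in the fit of all libraries. The fold changes of DEN LKO nontumour against DEN WT liver were -1.86 ± 0.83 for Ldha (limma adjusted p = 0.365), -1.82 ± 0.74 for Pgk1 (limma adjusted p = 0.352) and -1.25 ± 0.71 for Eno1 (limma adjusted p = 0.422). Without the 3 low-Ftcd libraries labelled WT, Ldha was -2.72 (limma adjusted p = 0.0393), Pgk1 -2.58 (limma adjusted p = 0.0343) and Eno1 -1.77 (limma adjusted p = 0.0971). In that fit 3 of the 9 genes passed, Slc16a1 higher and Ldha and Pgk1 lower in the knockout, against 8.35% of all genes. In the same fit 11 of 12 hepatocyte markers were lower, 4 of them passing, with a median of -1.62, beside -0.41 over all genes. With all libraries their median was -1.07, with 11 of 12 lower and none passing, and their sums were 29791 to 66055 TPM in DEN LKO nontumour and 24679 to 104275 TPM in DEN WT liver. Their part in the levels of Ldha, Pgk1 and Eno1 was not tested. With the mitochondrial share as a covariate in all libraries, Ldha was -0.27, Pgk1 -0.40 and Eno1 0.15, with limma adjusted p of 0.933, 0.884 and 0.957. Without the low-Ftcd libraries the share was 4.39% to 9.82% in DEN WT and 17.8% to 36.9% in DEN LKO nontumour liver. Genotype and this share therefore cannot be told apart in that fit.

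Tumours did not share one level of these 3 genes. Ldha was 63.4, 197 and 444 TPM, Pgk1 17.2, 38.8 and 116 TPM and Eno1 45.3, 84.2 and 418 TPM in tumour replicates 1, 2 and 3. All 3 ranges overlapped those of nontumour LKO and DEN WT liver. Tumour against nontumour LKO gave 1.46 ± 0.96 for Ldha, 1.04 ± 0.85 for Pgk1 and 0.51 ± 0.82 for Eno1, each with a limma adjusted p of 0.943. Leaving out tumour replicate 3 gave 0.80 for Ldha and 0.34 for Pgk1, and leaving out tumour replicate 1 gave 2.20 and 1.68, with limma adjusted p of 0.346 to 1. Against DEN WT liver, where all 3 were between -0.78 and -0.40 with all libraries, the values without the low-Ftcd libraries were -1.26 for Ldha, -1.53 for Pgk1 and -1.26 for Eno1 (limma adjusted p of 0.213 to 0.356).

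Ldha, Pgk1 and Eno1 were lower where the mitochondrially encoded share of a library was higher, as were many genes. The share is itself part of the summed TPM, and the median r over all 13872 genes tested was -0.49, for a reason that was not tested. Over 18 libraries, log2(TPM + 1) against the log2 of that share gave a Pearson r of -0.89 for Eno1 (Spearman rho -0.84), -0.85 for Pgk1 (rho -0.81) and -0.80 for Ldha (rho -0.79). Permutation p-values for r, adjusted over the 10 genes, were 0.00015, 0.00015 and 0.000233, and those for rho were 0.0004 for each of the 3. Of all genes tested, 1.68% had an r as low as Eno1, 4.82% as low as Pgk1 and 12.1% as low as Ldha. Without the 3 low-Ftcd libraries, a setting chosen after seeing the data, r was -0.91, -0.91 and -0.85. With the 2 libraries farthest from the median share left out r was -0.85, -0.78 and -0.71, after subtracting group means it was -0.85, -0.82 and -0.81, and within the 6 DEN WT libraries it was -0.92, -0.78 and -0.81, in the same order of genes. Hk1 gave r = -0.72 (rho = -0.76; permutation p adjusted 0.00192 and 0.000825), and Pkm and Slc2a1 gave -0.52 each (rho -0.64 each; adjusted permutation p of 0.0359 for r and 0.00848 for rho). Of all genes 25.5% had an r as low as Hk1, 47.0% as low as Pkm and 47.2% as low as Slc2a1. Slc16a1 went the other way, with r = 0.63 (rho = 0.49; permutation p adjusted 0.011 and 0.0429), r = 0.48 without the 2 farthest libraries and r = 0.49 after subtracting group means. It was 0.72 without the low-Ftcd libraries, and 6.13% of all genes had an r as high as the 0.63 over all libraries. Aldoa gave r = -0.43 and rho = -0.52 (adjusted permutation p 0.0867 and 0.0338) and Slc16a3 r = -0.21 and rho = -0.55 (0.53 and 0.028). Both r were nearer 0 than the median gene, with 53.7% of all genes as low as Aldoa and 65.7% as low as Slc16a3. Hk2 gave r = 0.02 and rho = 0.11 (0.939 and 0.668). The share averaged 19.4% ± 10.8 in tumours, 24.6% ± 10.6 in DEN LKO nontumour, 12.0% ± 13.3 in DEN WT, 23.2% ± 6.86 in untreated LKO and 12.5% ± 9.69 in untreated WT liver (SD, n = 3, 3, 6, 3 and 3). Its part in the differences between groups was not tested beyond the covariate fits given here.

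**Figure D2:**
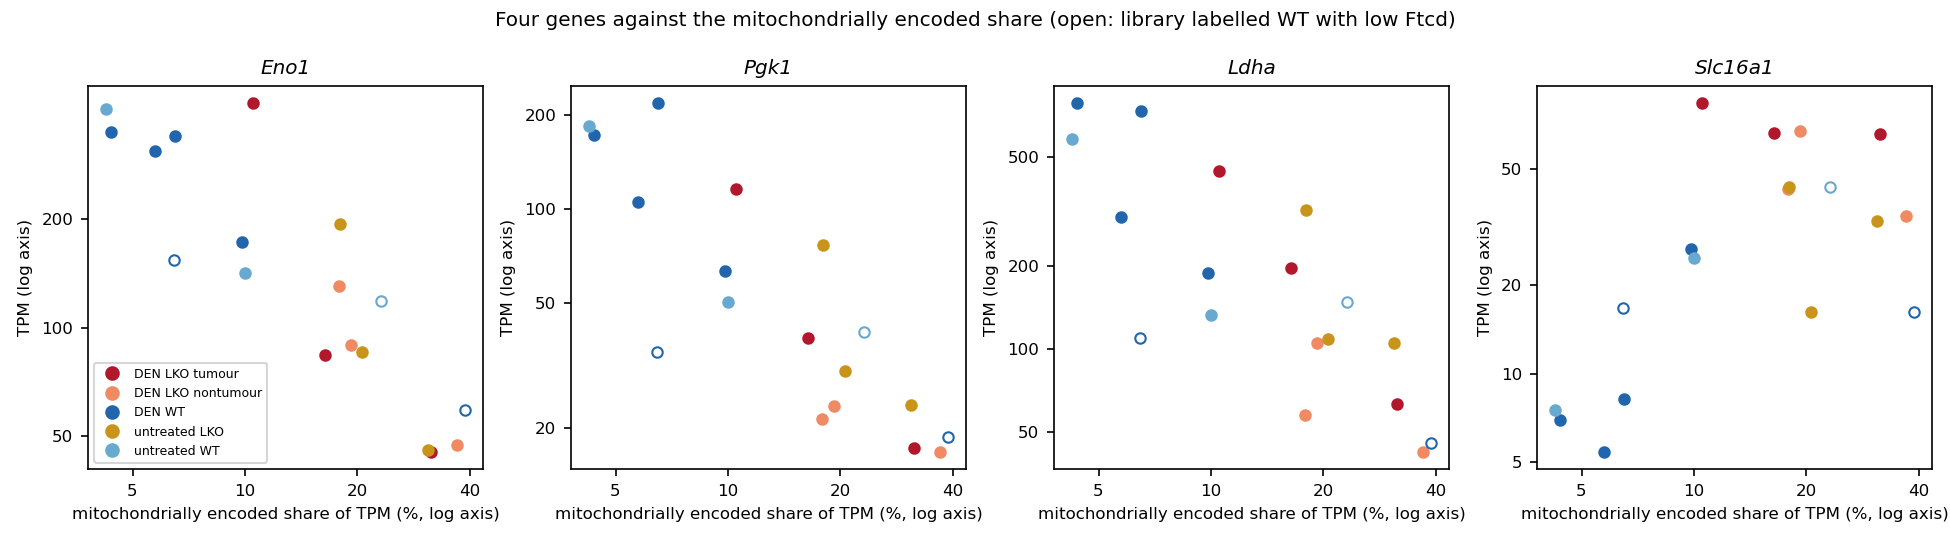
Each panel plots the TPM of one gene (log axis) against the percentage of a library's TPM from mitochondrially encoded genes (log axis), one point per library coloured by group, open for libraries labelled WT with low Ftcd. Eno1, Pgk1 and Ldha fall as the share rises (r = -0.89, -0.85 and -0.80), and Slc16a1 is higher at higher shares (r = 0.63). The highest Slc16a1 libraries are tumour replicate 3 (83.6 TPM) and then DEN LKO nontumour replicate 2 (67.4 TPM), above the other tumours.

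The first listed window of Ldha and the window of Pgk1, the pair with the most alike profiles among the 9 tested genes, are shown with the same capitals. This Ldha window, too, lies inside the GENCODE span of its gene.
Ldha, plus strand, chr7:46845554-46845803: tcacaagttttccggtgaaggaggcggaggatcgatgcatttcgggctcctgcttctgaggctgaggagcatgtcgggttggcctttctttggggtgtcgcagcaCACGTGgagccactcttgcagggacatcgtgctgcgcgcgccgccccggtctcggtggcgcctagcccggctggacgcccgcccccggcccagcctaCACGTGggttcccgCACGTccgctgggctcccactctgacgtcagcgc
Pgk1, plus strand, chrX:106186850-106187099: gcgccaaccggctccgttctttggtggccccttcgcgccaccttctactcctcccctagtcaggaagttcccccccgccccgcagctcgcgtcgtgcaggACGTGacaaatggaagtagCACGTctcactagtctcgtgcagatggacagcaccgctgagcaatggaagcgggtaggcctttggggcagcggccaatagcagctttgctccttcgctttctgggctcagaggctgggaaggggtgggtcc
The Ldha window holds 3 capital stretches, 2 of them spanning CACGTG. The Pgk1 window holds 2, with no CACGTG.

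The likeness of profiles was measured as the root mean square difference between profiles that were each centred and scaled to an SD of 1 over the 18 libraries, so that 0 means identical shape. Ldha and Pgk1 differed by 0.23 SD, Pgk1 and Eno1 by 0.36 and Aldoa and Pkm by 0.45, while Slc16a1 and Pgk1 differed by 1.71, the most of any pair. Over all genes tested, the 3 most like Ldha were Ube2g2 (0.16 SD), Psmd13 (0.21) and Mtg1 (0.22), and those most like Pgk1 were Zdhhc9 (0.15), Hadhb (0.17) and Pex19 (0.18). Those most like Slc16a1 were Tmem255a, Ppp2r1a and Mlxip, at 0.39, 0.39 and 0.43 SD. For Ldha and Pgk1 the median gene lay 0.92 and 0.91 SD away. For Slc16a1 it lay 1.46 SD away. These values are descriptions, since all genes of a library share its depth and RNA composition.

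In untreated liver the knockout gave no call among these genes. Of the 9 tested, 0 passed and 0 had an unadjusted p under 0.05, while 0.433% of all genes passed. Hk1 was the gene whose groups did not overlap, at 0.21, 0.14 and 0.29 TPM in untreated LKO against 1.03, 0.54 and 0.32 TPM in untreated WT liver (-0.40 ± 0.40, limma adjusted p = 0.83; -0.55 ± 0.43 without the low-Ftcd libraries, limma adjusted p = 0.605). Of all genes tested, 11.4% did not overlap in this comparison, so 1 of 9 was near the background. Ldha had 109, 105 and 321 TPM in untreated LKO against 579, 134 and 149 TPM in untreated WT liver, and Eno1 had 85.8, 45.9 and 194 TPM against 405, 142 and 119 TPM. Both groups were wide and overlapped (-0.55 ± 0.96 for Ldha, limma adjusted p = 0.85, and -1.04 ± 0.82 for Eno1, limma adjusted p = 0.83). Pgk1 had 30.3, 23.7 and 76.9 TPM in untreated LKO against 184, 50.4 and 40.4 TPM in untreated WT liver (-0.90 ± 0.85, limma adjusted p = 0.83). Without untreated WT replicate 1 the values were -0.24 for Pgk1 and -0.50 for Eno1, and without untreated LKO replicate 3 they were -1.40 and -1.58. Leaving out untreated LKO replicate 2 gave -0.57 and -0.55. Without the low-Ftcd libraries they were -1.32 and -1.38 and that of Ldha was -0.85 (limma adjusted p of 0.585 to 0.662). In this comparison 11 of 12 hepatocyte markers were lower, none passing, with a median of -1.001, and their part was not tested. Pkm had 5.21, 2.90 and 2.93 TPM against 9.54, 4.29 and 2.14 TPM, and Aldoa had 81.9, 35.9 and 63.4 TPM against 75.8, 62.5 and 52.4 TPM, in untreated LKO and untreated WT liver in that order. Slc2a1 and Hk2 likewise overlapped, with fold changes of -0.08 ± 0.66 and 0.18 ± 0.63.

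DEN itself was compared within each genotype. In WT liver 0 of 9 passed and 0% of all genes did, with 95 genes and none of these 9 at an unadjusted p under 0.05. None of the 9 separated the groups, against 0.670% of all genes. The largest difference there was Pkm, 4.60 to 19.4 TPM in DEN WT against 9.54, 4.29 and 2.14 TPM in untreated WT liver (0.87 ± 0.68, limma adjusted p = 1). In nontumour knockout liver 0 of 9 passed against 0.0649% of all genes, and none of the 9 had an unadjusted p under 0.05. Hk1 was higher and Pgk1 lower in all 3 DEN LKO nontumour libraries than in all 3 untreated LKO libraries, 2 of 9 against 12.3% of all genes. Pgk1 had 16.8, 23.5 and 21.3 TPM in DEN LKO nontumour against 30.3, 23.7 and 76.9 TPM in untreated LKO liver (-0.88 ± 0.85), and Hk1 had 0.35, 0.59 and 0.68 TPM against 0.21, 0.14 and 0.29 TPM (0.34 ± 0.40, limma adjusted p = 1 for both). Macrophage and Kupffer cell markers summed to 205.6 to 568.4 TPM in DEN LKO nontumour liver and 66.6 to 126.8 TPM in untreated LKO liver, and their part in these values was not tested.

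Across the 9 genes, tumours against nontumour LKO liver gave fold changes above 0 for all 9 with a median of 0.77, beside 0.23 over all genes tested. None passed (smallest limma adjusted p 0.943), none had an unadjusted p under 0.05, and none separated the groups. Of all genes 0% passed, 380 had an unadjusted p under 0.05, and 3.83% did not overlap. Without tumour replicate 3 the median of the 9 was -0.03. Tumours against DEN WT gave a median of 0.51, beside 0.04 over all genes, and -0.48 without tumour replicate 3. There Slc16a1 and Hk2 did not overlap, as for 3.19% of all genes, and Hk2 was tested only because the DEN LKO libraries brought it past the filter. Nontumour LKO against DEN WT liver gave a median of -0.35, beside -0.20 over all genes, and 0.08 without nontumour replicate 1. Of the 9, 0 passed there, 3 had an unadjusted p under 0.05 (Slc16a1, Pgk1 and Ldha) and 1, Slc16a1, separated the groups, against 0.0577% of all genes passing and 4.06% not overlapping. The untreated genotype comparison gave -0.29, beside -0.33, and 0.15 with median-ratio scaling, which moves the median of all genes to 0.004. The test of whether the genotype effect differed with DEN passed for 0 of 9, with none at an unadjusted p under 0.05, and for 0% of all genes, of which 332 had an unadjusted p under 0.05. Comparisons that share a group share its libraries, so their values are not independent.

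**Figure D3:**
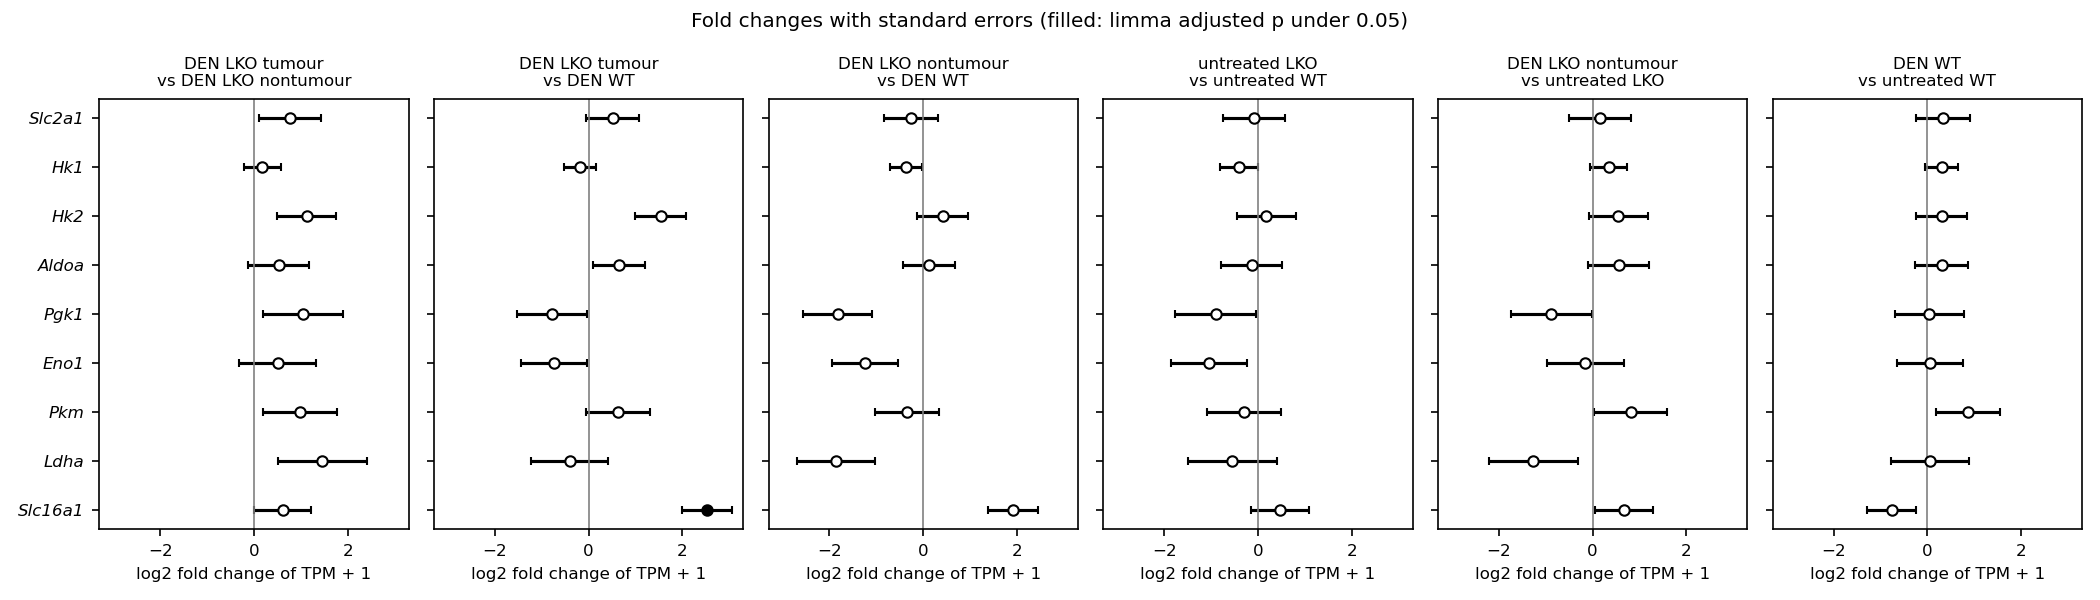
Points are log2 fold changes of TPM + 1 for the 9 tested genes in 6 comparisons, the first-named group over the second, with standard errors as bars; filled points have a limma adjusted p under 0.05. The filled point is Slc16a1 in tumours against DEN WT liver (2.52 ± 0.53), and all 9 points lie right of 0 for tumours against nontumour LKO liver without any passing.

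Set against the liver's own forms, Pkm and Slc2a1 remained the minor form. Their shares set tumour replicates 2 and 3 apart from replicate 1. Pkm was 6.44%, 29.4% and 29.2% of Pkm plus Pklr in the tumours, 13.4%, 12.9% and 15.3% in DEN LKO nontumour liver and 7.28% to 15.7% in DEN WT liver. It was 31.1%, 20.5% and 2.43% in untreated LKO liver, against 5.004%, 8.33% and 2.11% in untreated WT liver, so shares near 30% were not a feature of tumours alone. Pklr had 43.9, 29.7 and 176 TPM in the tumours. Slc2a1 was 1.48%, 13.8% and 14.9% of the glucose transporter sum with Slc2a2 and Slc2a3 in the tumours, 1.23%, 2.88% and 5.05% in DEN LKO nontumour liver and 1.77% to 5.65% in DEN WT liver. Slc2a2 averaged 71.4 ± 27.6 TPM in tumours, 101 ± 4.70 in DEN LKO nontumour and 101 ± 44.1 TPM in DEN WT liver (SD, n = 3, 3 and 6).

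Eno1 and Ldha were the dominant forms throughout. Eno1 was 93.2% to 99.5% of enolase TPM and Ldha was 94.1% to 99.7% of Ldha plus Ldhb over the 18 libraries. The lowest Ldha share was DEN LKO nontumour replicate 3, where Ldhb, the heart-type subunit, was 3.64 TPM. No test was made on the shares.

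**Figure D4:**
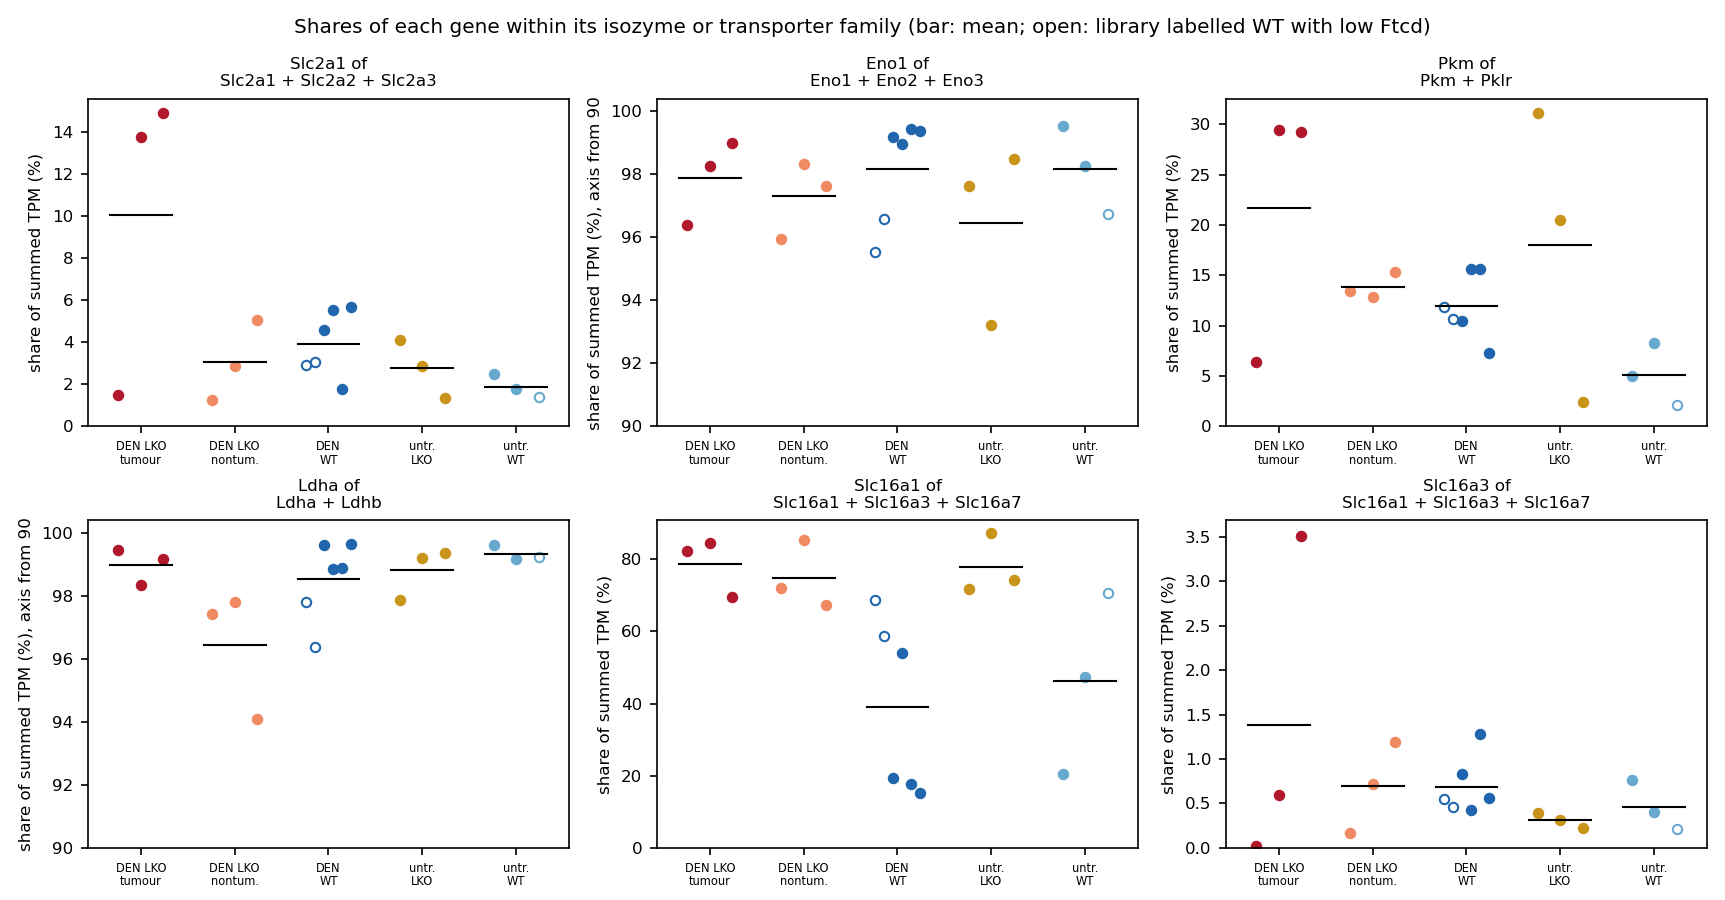
Each panel plots, per library, the percentage that a gene makes up of the summed TPM of its isozyme or transporter family, with group means as bars and open points for libraries labelled WT with low Ftcd; the axes for Eno1 and Ldha begin at 90%. The highest glucose transporter share of Slc2a1 (14.9%) is in tumour replicate 3, and Slc16a1 is 67.4% or more of its family in all 9 libraries labelled LKO.

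The rest of the pathway gave no calls when all libraries were fitted. Of 15 tested further glycolysis enzymes, 18 regulators of glycolysis and pyruvate entry, 6 further glucose and lactate transport genes and 16 HIF targets outside glycolysis, 0 passed in any of the 6 comparisons. Their median fold changes for tumours against nontumour LKO liver were 0.44, 0.21, 0.28 and 0.57 in that order, beside 0.23 over all genes. For nontumour LKO against DEN WT liver they were -0.22, -0.46, -0.65 and -0.10, beside -0.20. Triosephosphate isomerase (Tpi1) had 24.8, 39.8 and 48.3 TPM in DEN LKO nontumour liver against 43.9 to 380 TPM in DEN WT liver (-2.17 ± 0.82, limma adjusted p = 0.344). Without the low-Ftcd libraries it was -2.82 (limma adjusted p = 0.0436), and the phosphofructokinase gene Pfkm passed too (-1.59, limma adjusted p = 0.0456). Dlat, a subunit of pyruvate dehydrogenase, had 2.77, 1.96 and 3.04 TPM in DEN LKO nontumour liver, below the 3.31 to 21.2 TPM of all 6 DEN WT libraries (-1.53 ± 0.62, limma adjusted p = 0.352; -2.03 and 0.0504 without the low-Ftcd libraries). The mitochondrial pyruvate carrier gene Mpc1 gave -1.20 ± 0.60 (limma adjusted p = 0.392), and -1.87 (limma adjusted p = 0.0355) without the low-Ftcd libraries. In that reduced fit of DEN LKO nontumour against DEN WT liver, 8.35% of all genes passed. Of the lists, 2 of 15 enzymes, 1 of 18 regulators, 0 of 6 transport genes and 0 of 16 HIF targets passed in it. In tumours against DEN WT liver, Ndrg1, a HIF target, gave 1.11 ± 0.41 (limma adjusted p = 0.285), the growth regulator Myc 1.27 ± 0.56 (limma adjusted p = 0.41), and Pdp2, a phosphatase that activates pyruvate dehydrogenase, -1.23 ± 0.43 (limma adjusted p = 0.239).

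Gapdh, the step before Pgk1, averaged 2958 ± 2229 TPM in tumours, 2503 ± 1138 TPM in DEN LKO nontumour and 1720 ± 109 TPM in DEN WT liver (SD, n = 3, 3 and 6), and 1975 ± 565 TPM in untreated LKO and 2174 ± 381 TPM in untreated WT liver (SD, n = 3 each). It thus varied least in DEN WT liver, where Ldha ran from 45.6 to 781 TPM. Hif1a, the oxygen-regulated HIF subunit, which is controlled mostly at the protein level, averaged 2.19 ± 0.99 TPM in tumours, 1.87 ± 0.72 in DEN LKO nontumour and 3.55 ± 4.05 TPM in DEN WT liver (SD, n = 3, 3 and 6). Of the dividing cell markers, Birc5 passed in tumours against DEN WT liver (1.71 ± 0.37, limma adjusted p = 0.0464; 1.63 and 0.0519 without the low-Ftcd libraries), the comparison in which Slc16a1 passed, and their relation was not tested.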

How the data were processed

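The authors' deposited table gives TPM per gene for each library. Per the submitters' processing notes, fastp, HISAT and RSEM and the mouse build mm10 were used, without versions or roles. Per the labels' protocols, libraries were made with a TruSeq RNA kit, and strand handling is not given in the sources used here. TPM keep no read depth, so the depth of each library is unknown and no counting interval is given. No read counts were used. The authors' deposited group means were left out. The names matched 10 genes, and these members, the gene lists and the tests were chosen with earlier results of these data known. The genes named are all 10 members, liver isozymes (results on some isozymes are not reported here), up to 4 further genes per list with the smallest p, and the most alike profiles; Bsg and Birc5 were named after their values were seen. Fold changes and adjusted p-values are from limma 3.58.1 (R 4.3.3) on log2(TPM + 1) with 5 group means over all 18 libraries, 13 residual degrees of freedom, an intensity trend and Benjamini-Hochberg adjustment over the 13872 genes with at least 1 TPM in at least 3 libraries. The threshold was an adjusted p of 0.05. The pseudocount of 1 understates fold changes of low genes. The script was tested on simulated data. Correlations used 100000 permutations in scipy 1.17.1, two-sided. Coordinates are from GENCODE on mm10. Of the 10 genes, 6 overlap other annotated genes, which reached at most 0.45 TPM, and 12 named copies reached at most 1.9 TPM. RefSeq promoters (GRCm38.p6) matched all 10 genes. Alternatives were another pseudocount, no filter, other scalings, a replicate block, sex and mitochondrial terms, and leaving out libraries.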

Additional observations from a re-analysis of the deposited data

How the results depend on the processing

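Directions are given for the 26 of 63 member fold changes that exceeded their standard error. For Slc16a1 in tumours against DEN WT liver the fold change stayed between 2.11 and 2.76, but 0 members passed with no filter (2.52, adjusted p = 0.0759), median-ratio scaling (2.50, 0.0669), the replicate block (2.43, 0.476), a sex term (2.26, 0.535) and the mitochondrial covariate (2.11, 0.0518), and 0 to 1 with single libraries left out. The mitochondrial covariate reversed Hk1, Eno1 and Pgk1 in untreated LKO against WT (0.012, 0.10 and 0.26), Hk1 and Eno1 in DEN LKO nontumour against DEN WT (0.14 and 0.15), and Eno1 and Pgk1 in tumours against DEN WT (0.26 and 0.24). A sex term reversed Aldoa in tumours against DEN WT (-0.74). Leaving out tumour replicate 3 reversed Aldoa there (range -0.11 to 1.48 with single libraries left out) and, in tumours against nontumour LKO, Hk2 (-0.027 to 1.79) and Pkm (-0.13 to 1.97). The cause was not tested.

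Counts of all genes passing moved as follows. In untreated LKO against WT (60) they were 96 with median-ratio scaling, 10 with the replicate block, 26 with a sex term and 33 to 44 with one library left out. In DEN LKO nontumour against DEN WT (8) they were 2 with a pseudocount of 0.1, 21 with no filter, 14 with quantile normalization, 0 with the block, 4 with a sex term, 0 with the mitochondrial covariate, 1159 (3 members) without the low-Ftcd libraries, and 0 (without DEN WT replicate 6) to 202 (without DEN WT replicate 1). In tumours against nontumour LKO (0) they were 11 with no filter, 1 with median-ratio scaling, quantile normalization or no low-Ftcd libraries, and 0 to 21. In tumours against DEN WT (69) they were 313 with median-ratio scaling, 234 with quantile normalization, 0 with the block, 9 with a sex term, 161 with the mitochondrial covariate, 420 without the low-Ftcd libraries, and 27 (without DEN WT replicate 3) to 485 (without tumour replicate 1). In DEN LKO nontumour against untreated LKO (9) they were 2 with a pseudocount of 0.1, 19 with median-ratio scaling, 18 with quantile normalization, 3 with the block, 189 with a sex term, and 0 to 20. For the difference of genotype effects (0) they were 2 with no filter, 4 with median-ratio scaling or quantile normalization, 1 with a sex term or the mitochondrial covariate, 2 without the low-Ftcd libraries, and 0 to 10. In DEN WT against untreated WT they were 0 in every fit.

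Median-ratio scaling moved the median of all genes from -0.33 to 0.004 in untreated LKO against WT and raised the share of higher calls to 58.3%, against 40%. It was 50% with quantile normalization. In DEN LKO nontumour against DEN WT that share was 72.7% with median-ratio scaling and 64.3% with quantile normalization, against 50%. In tumours against DEN WT it was 40.6% with quantile normalization, against 52.2%. In DEN LKO nontumour against untreated LKO it was 42.1% and 44.4%, against 55.6%. Same-numbered libraries did not deviate together in every pair of any comparison, so the numbers were not taken as pairs. Correlations of deviations were 0.35, 0.30 and -0.034 for tumours and nontumour LKO liver, and 0.61, 0.0046 and 0.43 for tumours and DEN WT. Tumour and nontumour LKO libraries of the same number had the same sex call. The labels do not say whether they shared a mouse, and these values cannot show it.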
